A study of Mus musculus with 9 samples.

Results

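Potassium channel genes were compared in the lumbar dorsal root ganglia, which hold the cell bodies of sensory neurons, between mice in which Prdm12 was knocked out conditionally and inducibly (icKO) and control mice. The genes were all protein-coding mouse genes whose symbol begins with Kcn, found by their Ensembl identifiers. Of 55536 genes in the count tables, 94 were of this kind, and the 81 with a mean of at least 0.5 CPM (counts relative to library size) over the 9 libraries are described here. All levels are deposited read counts scaled to the same library size with TMM factors. The cut lay between Kcne3 at 0.507 CPM, Kcnj13 at 0.538 and Kcnrg at 0.540 on the inner side and Kcnj14 at 0.477, Kcna10 at 0.393 and Kcnk7 at 0.261 on the outer side. The rule uses symbols and mean levels, not the difference between the groups, although the family was picked with earlier results of these data known. All 81 genes passed the filter on low counts.

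There were 5 icKO and 4 control libraries, from adult C57Bl6 mice sampled 1 month after tamoxifen, the drug that starts the deletion in the inducible allele. The PRDM12 protein is a zinc finger regulator of transcription best known from nociceptors, which sense painful stimuli. The controls carry a wild type genotype label, so Prdm12 loss and any other difference of the icKO mice cannot be told apart. The labels name neither the driver of the recombinase nor the deleted exon, and they leave unsaid whether each library came from its own animal. The p-values therefore rest on library spread, part of which may be technical.

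Potassium channels let potassium flow along its gradient, which sets the resting potential of a sensory neuron, ends each action potential and limits how often it can fire. Pore-forming subunits carry a short conserved stretch, the selectivity filter, that lines the narrowest part of the pore. Modifier subunits of the Kv5, Kv6, Kv8 and Kv9 groups have such a pore but are known as electrically silent by themselves and alter Kv2 channels when built into them. Accessory subunits (the Kv beta, KChIP, minK-related and BK beta proteins) bind to a channel without forming its pore.

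The coding sequences show part of this division, that between subunits with a pore and those without. A filter signature of 5 codons was searched in the reading frame of each gene: threonine or serine, then valine, isoleucine, threonine, alanine or leucine, then glycine, then tyrosine, phenylalanine or leucine, then glycine. It was found in 67 of the 81 genes and in 413 of 21747 coding genes scanned, 1.9%. All 12 two-pore genes held at least 2 signatures. No match was found in the 3 Kv beta, 4 KChIP, 3 minK-related and 3 BK beta genes or in Kcnrg, a gene for a regulator without a pore.

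The stretches below are shown for the channels on which the results turn or whose subunits they bind, and the capitals mark the 15 bases of the filter within 18 bases of coding sequence on each side. They come from GENCODE transcripts on mm10 and are written from 5′ to 3′ on the strand of the gene. Kcng1 (chr2:168262623-168262673, minus strand, exon 2 of 2) and Kcnv1 (chr15:45109271-45109321, minus strand, exon 3 of 3) encode silent modifiers. Kcna2 (chr3:107105206-107105256, plus strand, exon 3 of 3) is a Kv1 pore subunit of the kind that Kv beta proteins bind, and Kcnc1 (chr7:46427955-46428005, plus strand, exon 2 of 4) is a Kv3 pore subunit. Kcnma1 (chr14:23528395-23528445, minus strand, exon 8 of 31) is the pore of the large-conductance calcium-activated (BK) channel. Kcnj11 (chr7:46099478-46099528, minus strand, exon 1 of 1) is an inward rectifier.
Kcng1: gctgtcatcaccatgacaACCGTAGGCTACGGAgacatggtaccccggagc
Kcnv1: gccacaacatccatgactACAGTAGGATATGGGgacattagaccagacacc
Kcna2: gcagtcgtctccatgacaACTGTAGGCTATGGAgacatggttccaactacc
Kcnc1: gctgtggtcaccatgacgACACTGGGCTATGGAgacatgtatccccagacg
Kcnma1: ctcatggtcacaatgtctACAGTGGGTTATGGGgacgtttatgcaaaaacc
Kcnj11: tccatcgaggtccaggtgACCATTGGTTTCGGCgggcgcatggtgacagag
The silent Kcng1 shared 13 of the 15 filter bases and 5 of 5 filter residues with the conducting Kcna2. Kcnv1 shared 12 bases and again all 5 residues, as did Kcnma1 with 11 bases. Kcnc1 shared 4 of the 5 residues and Kcnj11 3. The filter letters thus do not set the silent subunits apart from the conducting ones.

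The libraries held 19607740 to 29481589 counts each. A count of 3 corresponded to 0.102 to 0.153 CPM, and depth limits what can be said of the 5 channel genes with means under 1 CPM. Prdm12 itself was 24.0 ± 1.41 CPM (SD, n = 5) in icKO and 133.7 ± 19.95 CPM (SD, n = 4) in control, and the log2 fold change of -2.48 had an SE of 0.09 (edgeR, adjusted p = 2.51e-08). Its two-sided exact permutation p was 0.00794, the smallest possible with 5 and 4 libraries. The summed level of 7 pan-neuronal markers was 10639 to 12465 CPM in icKO and 10514 to 12440 CPM in control. Several libraries stood apart. Control 4 had a sum of 37.7 CPM over 6 spinal cord markers against 4.32 to 9.29 in the other 8, 29.7 CPM of it from the glial filament gene Gfap. Muscle markers summed to 42.8 CPM in control 2 and 28.0 in icKO 1 against 2.98 to 11.4 in the rest, and icKO 4 had the highest sums of the fibroblast list (1739 CPM) and of the endothelial and mural list (368 CPM). Y-linked genes were high in icKO 1 and 2 and control 1 and 3, and low in the other 5 libraries, so each group holds both kinds.

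The channel genes spanned more than 3 orders of magnitude in level. Of the 81, 15 had a mean of at least 100 CPM, 33 lay between 10 and 100, 28 between 1 and 10, and 5 under 1. Per kilobase of exon, a scale on which genes can be compared with one another, the Kv beta gene Kcnab2 stood highest at 159 CPM per kb. It was followed by the KChIP genes Kcnip3 (82.6) and Kcnip4 (77.5), and by Kcnd1 (67.0), which encodes the Kv4 pore that KChIP proteins bind. The sodium-activated channel Kcnt1 (44.8) and the KChIP gene Kcnip2 (42.6) came next, then the Kv1 pore genes Kcna2 (41.7) and Kcna1 (38.9). The lowest gene, Kcnj6, was at 0.0936 CPM per kb. Accessory subunits thus held 3 of the highest 4 places. Summed over the 81 genes, the level was 5648 to 6329 CPM in icKO and 5737 to 6673 CPM in control, so the totals overlapped.

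**Figure D1:**
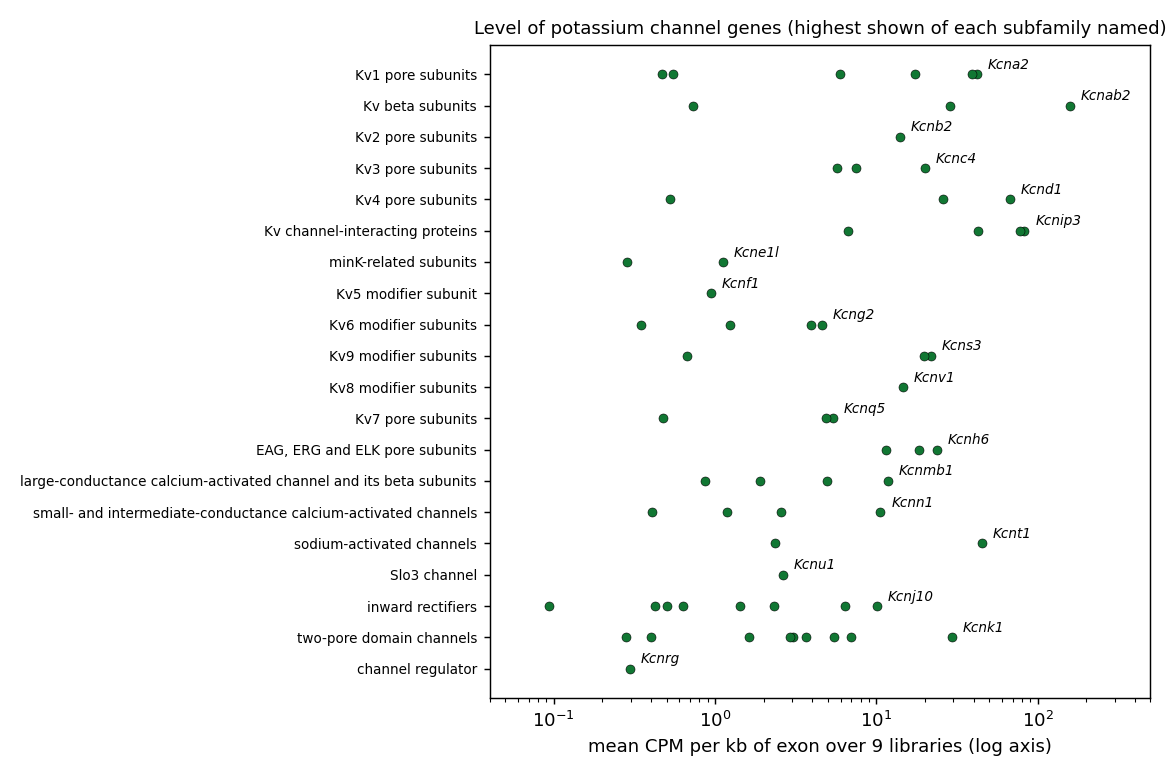
Level of 66 of the 81 potassium channel genes, those named in the text, by subfamily (rows), as mean CPM per kb of exon over the 9 libraries on a log axis; each point is 1 gene and the highest one shown of each subfamily is named. The points run from 0.0936 (Kcnj6) to 159 (Kcnab2), and most subfamilies with several genes hold both high and low ones.

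Comparing icKO with control asked which of these genes differ in level when Prdm12 is deleted in the adult. Of the 81 genes, 2 rose (Kcnab1 and Kcnv1), 2 fell (Kcnmb1 and Kcng1) and 77 did not pass. The test was edgeR's quasi-likelihood test, with p-values adjusted by Benjamini-Hochberg over all 17258 genes tested and a threshold of 0.05. The 4 genes are 4.94% of the family, against 0.852% of all tested genes, with 2.47% in each direction against 0.475% higher and 0.377% lower over all genes. None of the 4 is a conducting pore subunit. Kcnab1 and Kcnmb1 are accessory, and Kcnv1 and Kcng1 are silent modifiers. Of the 58 conducting pore genes 0 passed, the smallest adjusted p being 0.0517 for Kcnc1. At the 0.852% of all tested genes, 0 calls among 58 genes would not be unusual. Among those 58, an unadjusted p under 0.05 was reached by 4 with higher and 18 with lower values. Over all tested genes these shares were 4.85% and 6.26%. DESeq2, run as an alternative, called 7 of the 58, and 196 genes higher and 229 lower over the whole table. Whether the classes differ in their share of calls was not tested.

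Over all 81 genes, the 4 past the threshold included, more values were lower than higher in icKO. An unadjusted p under 0.05 was reached by 7 genes with higher values (8.64%, against 4.85% of all tested genes) and by 25 with lower values (30.9%, against 6.26%). Values were lower in icKO for 54 genes and higher for 27. The median log2 fold change was -0.09, against -0.000755 over all tested genes. Every icKO library lay above every control library for 5 genes (6.17%, against 2.17% of all tested genes), namely Kcnab1, Kcnv1, Kcnc2, Kcnip4 and Kcnh6. Every icKO library lay below every control library for 10 genes (12.3%, against 2.34%), namely Kcng1, Kcnmb1, Kcnc1, Kcnip3, Kcnab3, Kcnn2, Kcnn3, Kcnj9, Kcnj11 and Kcnk10. Channel genes are mostly neuronal and share libraries and depth, so they are not independent of one another. In whole ganglia, fewer cells of a type and less RNA per cell cannot be told apart.

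**Figure D2:**
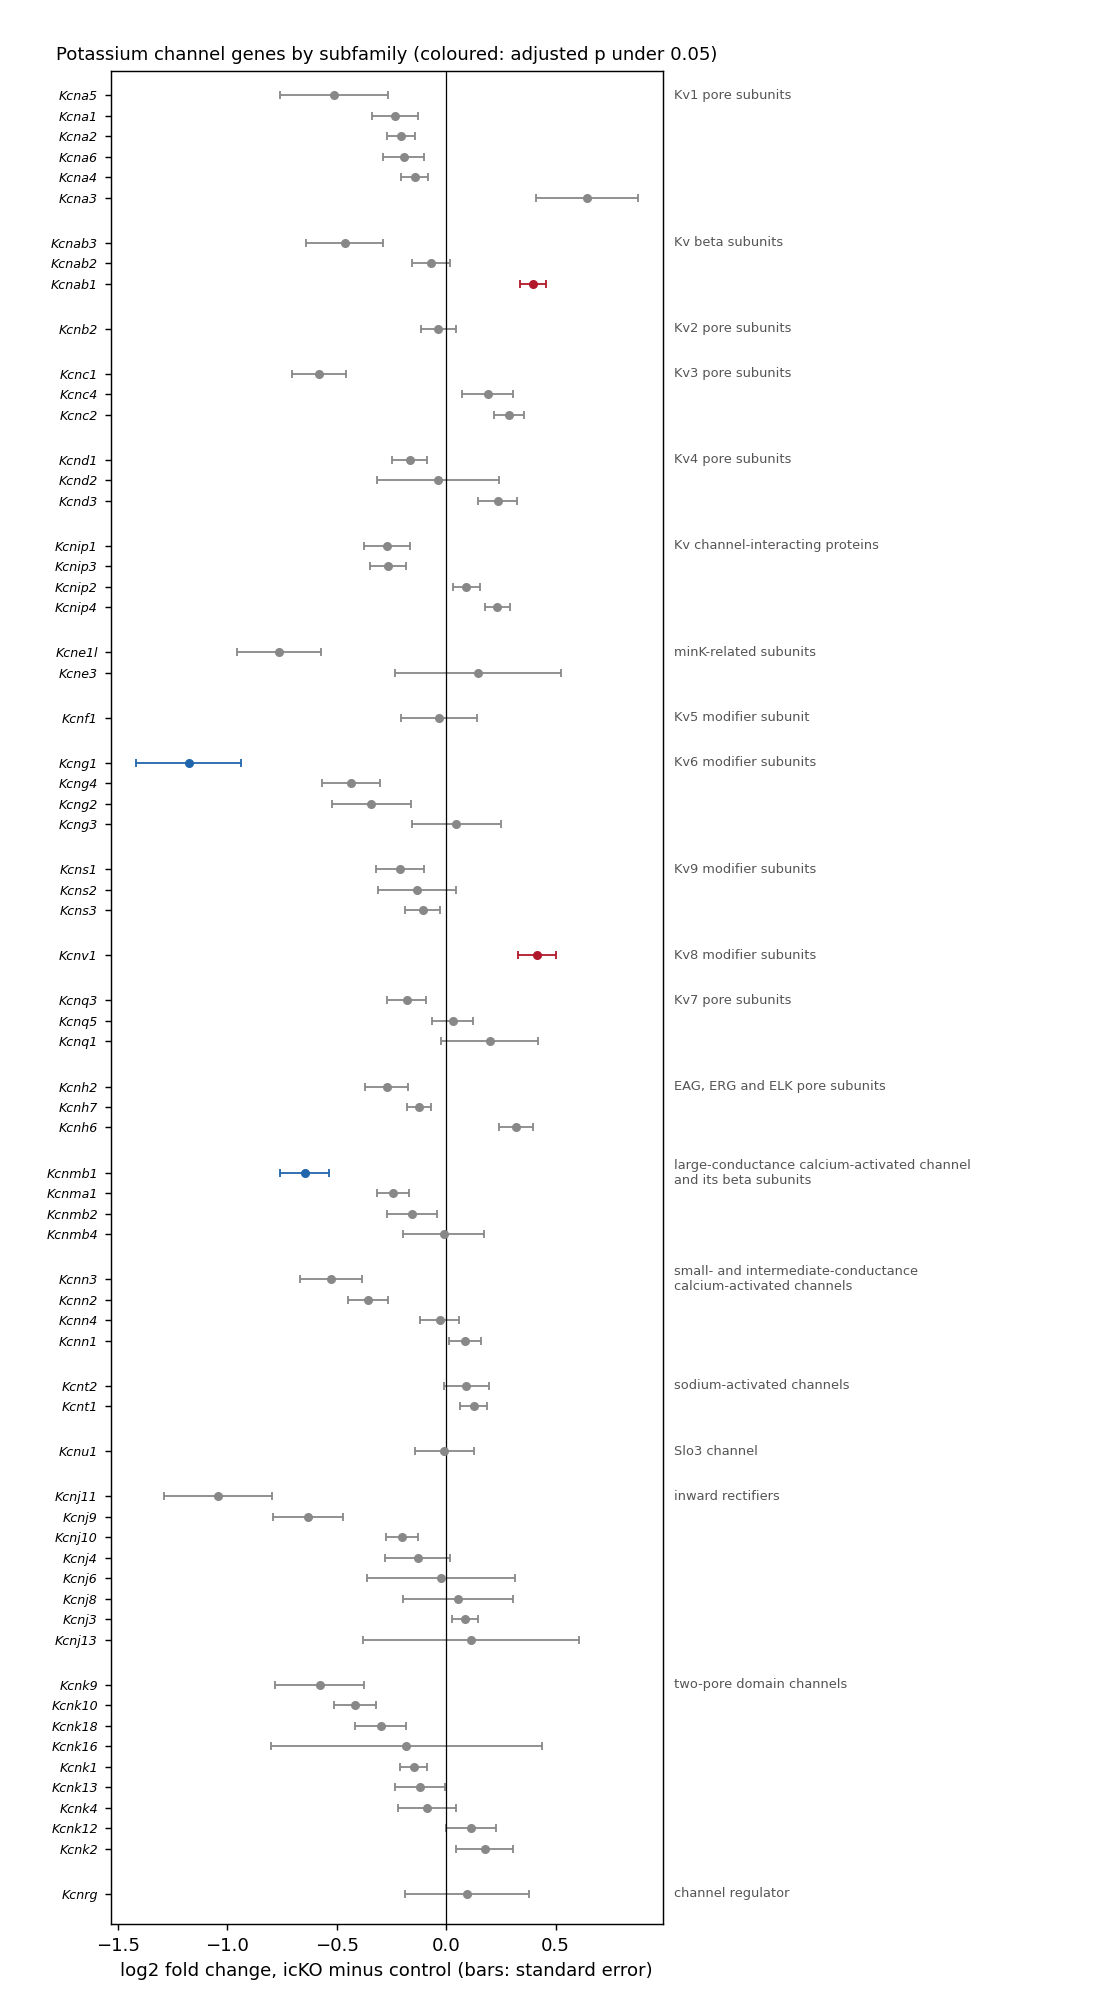
Log2 fold change, icKO minus control, of 66 of the 81 potassium channel genes, those named in the text, grouped by subfamily; points are the fitted values, bars the standard error, red and blue mark genes with an adjusted p under 0.05. Kcnab1 and Kcnv1 lie to the right, Kcnmb1 and Kcng1 to the left, and the long bars belong to genes of low level such as Kcnk16 and Kcnj13.

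Kcnab1 encodes Kv beta 1, a cytoplasmic subunit that binds Kv1 channels and is known to give them fast inactivation. Its level was 272.9, 274.7, 269.6, 277.9 and 278.8 CPM in icKO 1 to 5 and 223.5, 204.8, 186.9 and 219.8 CPM in control 1 to 4. The icKO libraries were all above the controls and lay closer together. The level rose 1.32-fold, with means of 274.8 ± 3.78 CPM (SD, n = 5) in icKO and 208.7 ± 16.7 CPM (SD, n = 4) in control. The log2 fold change was 0.40, its SE 0.06 and the adjusted p 0.00679. The gene passed the threshold in each of the 9 fits that left out 1 library, and the log2 fold change was 0.43 where Y-linked counts were high and 0.38 where they were low. Kcnab1 (ENSMUSG00000027827) lies at chr3:65109384-65378223 on the plus strand of mm10, and the overlapping gene A330015K06Rik shares 2.34% of its exonic bases. The other Kv beta genes did not pass. Kcnab2, the most abundant, was 869 CPM in icKO against 911 CPM in control (log2 ratio -0.07, adjusted p = 0.846). Kcnab3 was 1.79 and 2.49 CPM (-0.46, adjusted p = 0.326), without overlap between the groups.

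The Kv1 pore genes, whose products Kv beta proteins bind, gave no call among 6. Kcna1, Kcna2 and Kcna6 encode low-threshold channels known from the axons of myelinated neurons. Kcna2 was 465 ± 10.9 CPM (SD, n = 5) in icKO and 537 ± 51.6 CPM (SD, n = 4) in control (log2 ratio -0.21, SE 0.07, adjusted p = 0.220), Kcna1 was 173 and 203 CPM (-0.23, adjusted p = 0.444) and Kcna6 was 96.3 and 110 CPM (-0.19, adjusted p = 0.475). Of the 6 genes, 5 had negative values, also Kcna4, an A-type subunit (-0.14), and Kcna5 (-0.51). Kcna3, at 1.24 and 0.805 CPM, had a positive one (0.64, SE 0.23, adjusted p = 0.297). The groups overlapped for all 6. Of Kcna6, 39.61% of the exonic bases are shared with the annotated gene Gm26673, so its counts are uncertain where strand was not used. Kcna5, Kcna1 and Kcna6 lie in a row on chromosome 6, and Kcna3 and Kcna2 lie 63075 bp apart on chromosome 3 with values of opposite sign. Of the genes for partner proteins of channels with other names, 25 were listed and 23 tested. Among these 0 rose and 1 fell, an unadjusted p under 0.05 was reached by 2 with higher and 7 with lower values, and the median log2 fold change was -0.06. Over all tested genes, 0.475% rose and 0.377% fell, and 4.85% and 6.26% had such an unadjusted p with higher and lower values. The gene that fell was Cntn2, which encodes an adhesion protein that holds Kv1 channels beside the nodes of myelinated axons. It was 232.8 ± 19.4 CPM (SD, n = 5) in icKO and 302.9 ± 28.9 CPM (SD, n = 4) in control, without overlap. Its log2 fold change was -0.38 (SE 0.08, adjusted p = 0.0464), and among the fits that left out a library only that without control 2 kept the call (highest adjusted p 0.141). Cntnap2, which encodes its membrane partner there, was 265 and 293 CPM in icKO and control (-0.15, adjusted p = 0.360).

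Kcnv1 and Kcng1, the silent modifiers that passed, moved in opposite directions. Kcnv1 encodes Kv8.1. Its level was 72.5, 88.0, 72.9, 78.1 and 67.3 CPM in icKO 1 to 5 and 63.2, 59.7, 54.8 and 48.9 CPM in control 1 to 4. Every icKO library was above every control, by a small margin between icKO 5 and control 1. The level rose 1.34-fold, with means of 75.8 ± 7.83 CPM (SD, n = 5) in icKO and 56.7 ± 6.21 CPM (SD, n = 4) in control. On the log2 scale the change was 0.42 (SE 0.09), and the adjusted p was 0.0483. The call was near the threshold and was kept only without icKO 5 or without control 1 among the 9 fits that left out a library (highest adjusted p 0.135). Libraries of high and of low Y-linked counts gave 0.45 and 0.42. Kcnv1 (ENSMUSG00000022342) lies at chr15:45106284-45114920 on the minus strand and shares no exonic base with another annotated gene.

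Kcng1 encodes Kv6.1 and was expressed at a very low level. Its level was 0.739, 0.658, 1.46, 0.862 and 1.30 CPM in icKO 1 to 5 and 2.78, 2.28, 1.78 and 2.26 CPM in control 1 to 4. The groups did not overlap, and icKO 3 and 5 came closest to the controls. These levels rest on only 17 to 42 raw counts in the icKO libraries and 44 to 76 in the controls. The level fell 2.26-fold, with means of 1.00 ± 0.356 CPM (SD, n = 5) in icKO and 2.28 ± 0.408 CPM (SD, n = 4) in control. On the log2 scale the change was -1.18 (SE 0.24), and the adjusted p was 0.0449. The call was kept without icKO 3 and lost without each of the other 8 libraries (highest adjusted p 0.130). The log2 change was -1.69 within the libraries of high Y-linked counts and -0.90 within those of low ones, and the difference between these had an unadjusted p of 0.0938. Kcng1 (ENSMUSG00000074575) lies at chr2:168260117-168281736 on the minus strand.

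Of the 10 genes for silent modifiers, 9 reached 0.5 CPM, and the median log2 fold change of these 9 was -0.13. The 7 that did not pass ranged from -0.43 for Kcng4 to 0.05 for Kcng3. Kcng4, which encodes Kv6.4, was 12.98 and 17.5 CPM in icKO and control (-0.43, SE 0.13, adjusted p = 0.192). The most abundant, Kcns3 (Kv9.3) and Kcns1 (Kv9.1), were 66.5 and 71.6 CPM (-0.11, adjusted p = 0.705) and 50.2 and 58.1 CPM (-0.21, adjusted p = 0.517). Kcng2, Kcns2 and Kcnf1 had values of -0.34, -0.13 and -0.03. Kcnb2 encodes a Kv2 pore with which these subunits assemble. It was 210 ± 4.44 CPM (SD, n = 5) in icKO against 216 ± 30.4 CPM (SD, n = 4) in control, with a log2 ratio of -0.04 (SE 0.08). Amigo1, which encodes a Kv2 partner, was 217 and 196 CPM (0.15, adjusted p = 0.492).

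Kcnmb1 encodes the beta 1 subunit of the BK channel, known from smooth muscle, where it raises the sensitivity of the channel to calcium. Its level was 40.7, 34.6, 43.0, 34.2 and 44.0 CPM in icKO 1 to 5 and 50.0, 74.1, 57.0 and 65.1 CPM in control 1 to 4. All icKO libraries were below all controls, and control 1 was the nearest to them. The level fell 1.56-fold, with means of 39.3 ± 4.64 CPM (SD, n = 5) in icKO and 61.5 ± 10.4 CPM (SD, n = 4) in control. The log2 fold change was -0.65, its SE 0.11 and the adjusted p 0.0168. The call was lost without control 4 (adjusted p 0.0507) and kept in the other 8 fits that left out a library. Libraries of high Y-linked counts gave -0.50 and those of low ones -0.79.

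Because Kcnmb1 is known from smooth muscle, the markers of vessel cells are given beside it. Of 8 endothelial and mural markers, 0 passed the threshold, 4 had positive and 4 negative values, and none was at 0. Their sum was 281 to 368 CPM in icKO and 289 to 349 CPM in control, so the groups overlapped. The smooth muscle genes Acta2 and Myh11 were at 11.1 and 6.98 CPM in icKO and 10.6 and 7.52 CPM in control, and the pericyte gene Rgs5 was at 210 and 216 CPM. Per kb of exon, the means over all libraries were 4.96 for Acta2, 0.950 for Myh11 and 46.8 for Rgs5, against 11.7 for Kcnmb1. The part of vessel cells in the Kcnmb1 values was not tested. Kcnmb1 (ENSMUSG00000020155) lies at chr11:33963013-33973641 on the plus strand, inside the span of the KChIP gene Kcnip1 (chr11:33629339-33993152, minus strand), and the genes share no exonic base. Kcnip1 was 38.1 and 45.9 CPM in icKO and control (-0.27, adjusted p = 0.355).

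The pore gene of the BK channel, Kcnma1, was 77.7 ± 2.45 CPM (SD, n = 5) in icKO and 91.9 ± 11.02 CPM (SD, n = 4) in control, a log2 ratio of -0.24 (SE 0.07, adjusted p = 0.192). Its groups overlapped only through control 2, at 77.0 CPM. The other BK beta genes were low, Kcnmb2 at 5.63 and 6.26 CPM (-0.15) and Kcnmb4 at 2.86 and 2.90 CPM (-0.01). Among the small- and intermediate-conductance calcium-activated channels, which act after bursts of firing, Kcnn3 was 3.52 and 5.09 CPM (-0.53, adjusted p = 0.125) and Kcnn2 7.83 and 10.02 CPM (-0.36, adjusted p = 0.111), both without overlap. Kcnn1, the most abundant of them, was 49.8 and 46.9 CPM (0.09, adjusted p = 0.758), and Kcnn4 was 13.03 and 13.3 CPM (-0.03). The sodium-activated genes Kcnt1 and Kcnt2 had values of 0.13 and 0.09, with Kcnt1 at 442 and 405 CPM (adjusted p = 0.491). Kcnu1, a relative of the BK pore gene, had a value of -0.01.

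**Figure D3:**
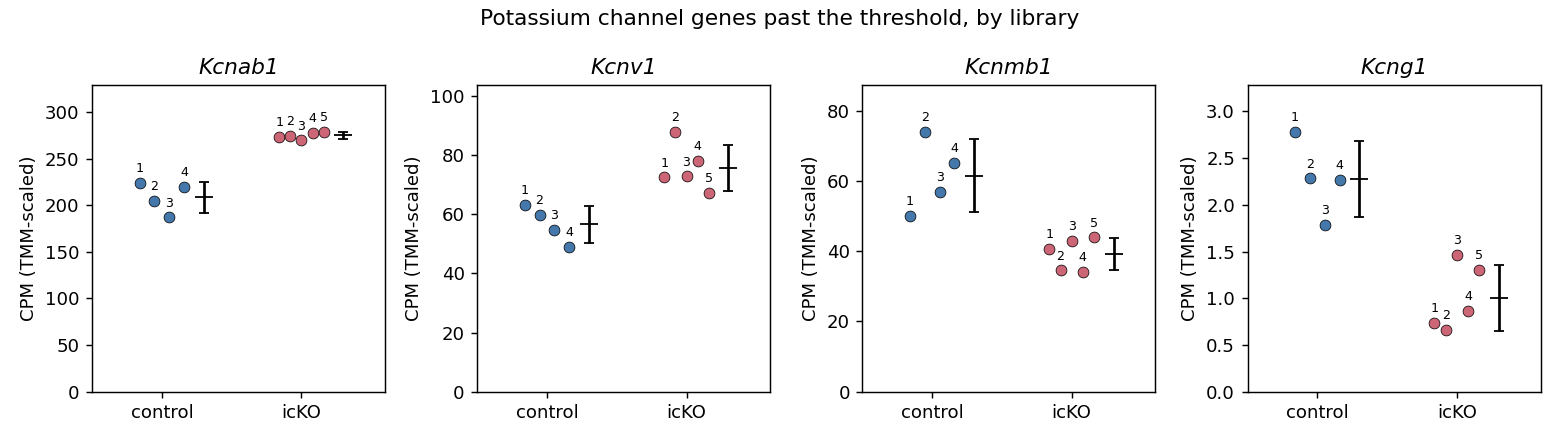
Level in each library, in TMM-scaled CPM from 0, of the 4 potassium channel genes past the threshold; points are libraries with their replicate numbers, and the bars give the mean and SD of each group. The groups do not overlap in any panel, with Kcnab1 and Kcnv1 higher and Kcnmb1 and Kcng1 lower in icKO.

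Several genes lay just beyond the threshold. Kcnc1 encodes Kv3.1, a channel that opens at high voltage and lets neurons fire rapidly. Its level was 58.4, 61.0, 62.7, 45.1 and 63.3 CPM in icKO 1 to 5 and 81.9, 69.3, 87.8 and 109 CPM in control 1 to 4. The groups did not overlap, icKO 4 was the lowest and control 4 the highest. The log2 fold change was -0.58 (SE 0.12, adjusted p = 0.0517). Leaving out 1 library gave an adjusted p between 0.0231 and 0.142, and only the fit without control 2 passed. The Kv3 genes Kcnc2 and Kcnc4 had positive values. Kcnc2 was 44.1 ± 1.90 CPM (SD, n = 5) in icKO and 36.2 ± 3.55 CPM (SD, n = 4) in control, without overlap (0.29, SE 0.07, adjusted p = 0.0763). Kcnc4 was 77.4 and 67.9 CPM (0.19, adjusted p = 0.611).

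Kcnj11 encodes Kir6.2, the pore of the channel that ATP closes, and Abcc8 encodes SUR1, the sulfonylurea receptor with which it assembles. Kcnj11 was at 3.70, 3.25, 4.56, 1.93 and 4.42 CPM in icKO 1 to 5 and 4.87, 7.18, 6.99 and 10.6 CPM in control 1 to 4. The groups did not overlap, although icKO 3 and control 1 were close. The log2 fold change was -1.04 (SE 0.25, adjusted p = 0.0765). Abcc8 was 11.6 ± 2.36 CPM (SD, n = 5) in icKO and 16.9 ± 1.96 CPM (SD, n = 4) in control, again without overlap, a log2 ratio of -0.54 (SE 0.14, adjusted p = 0.113). Neither passed the threshold. The genes are neighbours on the minus strand of chromosome 7, Kcnj11 at chr7:46093953-46100764 and Abcc8 at chr7:46104523-46180033, 3758 bp apart. Kcnc1 is the next listed gene, 216463 bp further on at chr7:46396497-46438704. The other channel of this kind, Kcnj8 with its receptor gene Abcc9, had log2 fold changes of 0.05 and 0.08.

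Of the other inward rectifiers, Kcnj10, which encodes Kir4.1 and is known from satellite glia, was the most abundant in CPM, at 50.9 and 58.6 CPM in icKO and control (-0.20, adjusted p = 0.293). Satellite glia markers summed to 3876 to 4582 CPM in icKO and 3599 to 4812 CPM in control. Kcnj9, which encodes a channel subunit opened by G proteins, was 1.73 and 2.67 CPM without overlap (-0.63, SE 0.16, adjusted p = 0.102). Kcnj3, of the same channel family, was 34.3 and 32.3 CPM (0.09, adjusted p = 0.681), with 31.08% of its exonic bases shared with Gm26794. The remaining 6 of the 11 inward rectifiers had values between -0.13 (Kcnj4) and 0.11 (Kcnj13). The exons of Kcnj13 share 49.06% of their bases with Gigyf2, which had 117.11 times its counts, so its level is uncertain.

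Kv4 channels with KChIP and Dpp proteins carry an A-type current that opposes early depolarization. The pore genes Kcnd1 and Kcnd3 were 336 and 377 CPM (-0.17, adjusted p = 0.490) and 267 and 227 CPM (0.24, adjusted p = 0.320) in icKO and control. Kcnip4 was 301 ± 15.6 CPM (SD, n = 5) in icKO and 256 ± 10.6 CPM (SD, n = 4) in control, without overlap (0.23, SE 0.06, adjusted p = 0.0810). Kcnip3 was 269 ± 26.5 and 323 ± 27.7 CPM, also without overlap but in the other direction (-0.27, SE 0.08, adjusted p = 0.198). Both are among the most abundant channel genes of the ganglion. Kcnip2 was 152 and 143 CPM (0.09, adjusted p = 0.655). Dpp6 was 516 and 600 CPM without overlap (-0.22, SE 0.06, adjusted p = 0.108), and Dpp10 209 and 209 CPM. Kcnd2 was low, at 2.64 and 2.75 CPM.

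The Kv7 genes Kcnq3 and Kcnq5 encode subunits of the M-current, a slow current that holds back repeated firing. Kcnq3 was 67.7 ± 6.65 CPM (SD, n = 5) in icKO against 76.8 ± 9.23 CPM (SD, n = 4) in control (-0.18, SE 0.09, adjusted p = 0.493). Kcnq5 was 41.8 and 40.9 CPM (0.03, adjusted p = 0.953), and Kcnq1 had a value of 0.20. The exons of Kcnq1 share 2.96% of their bases with Kcnq1ot1, which had 6.436 times its counts, so the level of Kcnq1 is uncertain. In the group of EAG, ERG and ELK channels, Kcnh6 was 92.3 ± 5.17 and 74.0 ± 8.95 CPM without overlap (0.32, SE 0.08, adjusted p = 0.0863), and Kcnh2 81.7 and 98.6 CPM (-0.27, adjusted p = 0.299). Both encode ERG channels. The third ERG gene, Kcnh7, was the most abundant in CPM, at 168 and 183 CPM (-0.12, adjusted p = 0.437). The 3 minK-related genes were all low, with Kcne1l at 1.32 and 2.24 CPM (-0.76, SE 0.19, adjusted p = 0.101), its groups overlapping through icKO 1 and control 4.

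**Figure D4:**
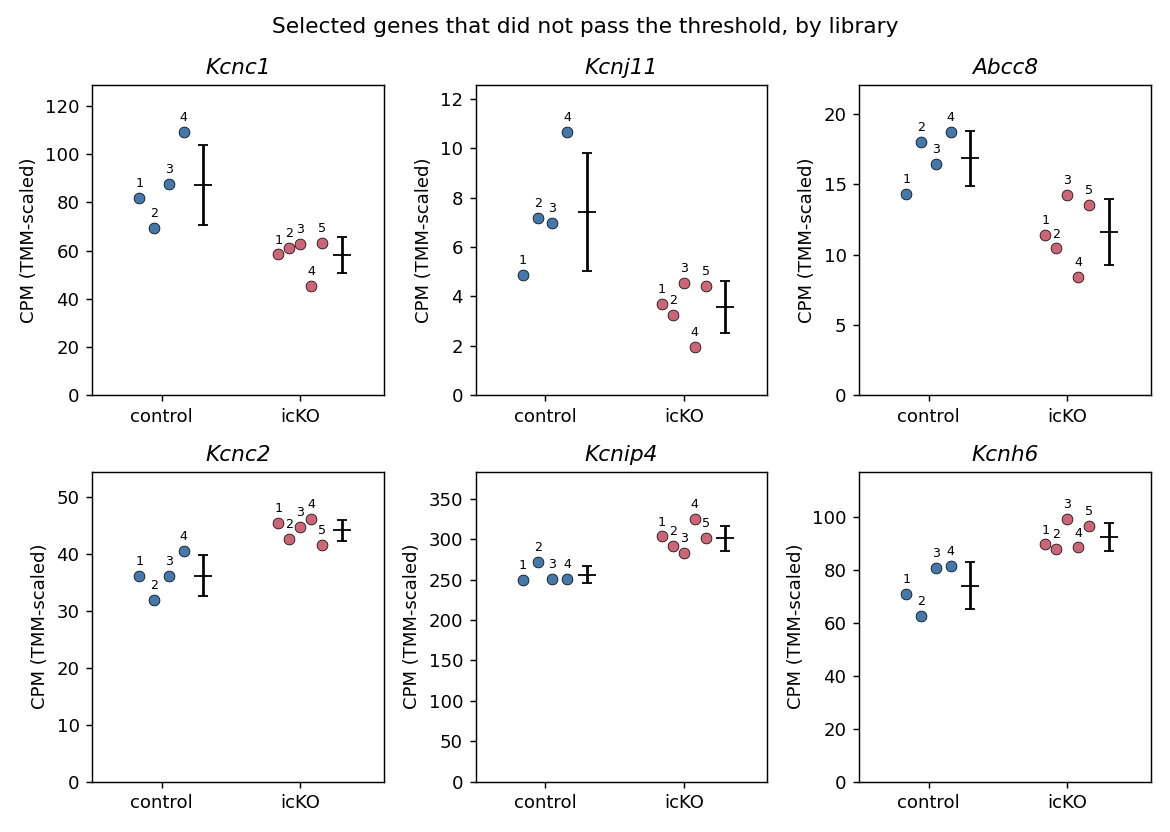
Level in each library, in TMM-scaled CPM from 0, of 6 genes that did not pass the threshold and whose groups do not overlap; points are libraries with their replicate numbers, and bars give mean and SD. Kcnc1, Kcnj11 and Abcc8 are lower and Kcnc2, Kcnip4 and Kcnh6 higher in icKO, with adjusted p between 0.0517 and 0.113.

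Two-pore channels carry the background current of the resting cell, and 12 of their genes were measured. None passed. An unadjusted p under 0.05 was reached by 4 with lower and 0 with higher values, and the median was -0.10. Over all tested genes these shares were 6.26% lower and 4.85% higher, and over the 81 channel genes 30.9% and 8.64%. Kcnk10, which encodes TREK-2, a channel that responds to stretch and heat, was 12.4 ± 1.22 CPM (SD, n = 5) in icKO and 16.5 ± 1.83 CPM (SD, n = 4) in control, without overlap (-0.41, SE 0.10, adjusted p = 0.0715). It passed with a term for Y-linked counts in the fit (adjusted p 0.0180). Its relatives Kcnk2 (TREK-1) and Kcnk4 (TRAAK) were 15.8 and 14.02 CPM (0.18, adjusted p = 0.700) and 15.9 and 16.9 CPM (-0.09, adjusted p = 0.880), the latter with 13.15% of its exonic bases shared with Catsperz. Kcnk18 (TRESK), known from sensory neurons, was 9.11 and 11.2 CPM (-0.30, adjusted p = 0.340). Kcnk9 was 4.04 and 6.06 CPM (-0.58, adjusted p = 0.283), with 3 controls above and control 1 below every icKO library. Kcnk1, the most abundant, was 62.6 and 69.3 CPM (-0.15, adjusted p = 0.375). The other 6 genes lay between -0.18 (Kcnk16) and 0.11 (Kcnk12).

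A list of 6 channel genes known from large-diameter sensory neurons (Kcna1, Kcna2, Kcnab2, Kcnc1, Kcng4 and Kcns1) had negative values for 6 of 6. None passed the threshold, 4 had an unadjusted p under 0.05, and the median was -0.22, between -0.31 and -0.17 when 1 library was left out. Lower values at that p were reached by 30.9% of the 81 channel genes and 6.26% of all tested genes. Negative values were found for 54 of the 81 and for 8666 of the 17258. The summed level of the 6 genes was 1425 to 1728 CPM in icKO and 1578 to 1910.1 CPM in control, with control 2 lowest among the controls and icKO 4 lowest of all. Beside these values stand 9 markers of A-fibre mechanoreceptors and proprioceptors, neurons known to hold these channels, of which 0 fell and 1 rose. Their sum was 2921 to 3410 CPM in icKO and 3432 to 3885 CPM in control, without overlap and with none at 0. The neurofilament gene Nefh gave most of that sum, at 2047 ± 214 CPM (SD, n = 5) and 2627 ± 256 CPM (SD, n = 4) (-0.36, SE 0.08, adjusted p = 0.0763). Nefh by itself overlapped between the groups, with icKO libraries up to 2330 CPM and controls from 2289 CPM. Of the 9, 6 had negative and 3 positive values. An unadjusted p under 0.05 was reached by 4 with lower and 1 with higher values. Over all tested genes these shares were 6.26% and 4.85%, and 0.377% fell and 0.475% rose. The markers Etv1 (-0.39, SE 0.08, adjusted p = 0.0525) and Esrrg (-0.35, SE 0.09, adjusted p = 0.0829) were lower without overlap. Among the 9, only Ntrk3, the receptor of neurotrophin-3, passed, also without overlap. It rose, from a control mean of 374 CPM to 527 CPM (adjusted p = 0.0342), and among the fits that left out a library the call was kept only without icKO 2, control 2 or control 4 (highest adjusted p 0.0969). The part of these neurons in the channel values was not tested.

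**Figure D5:**
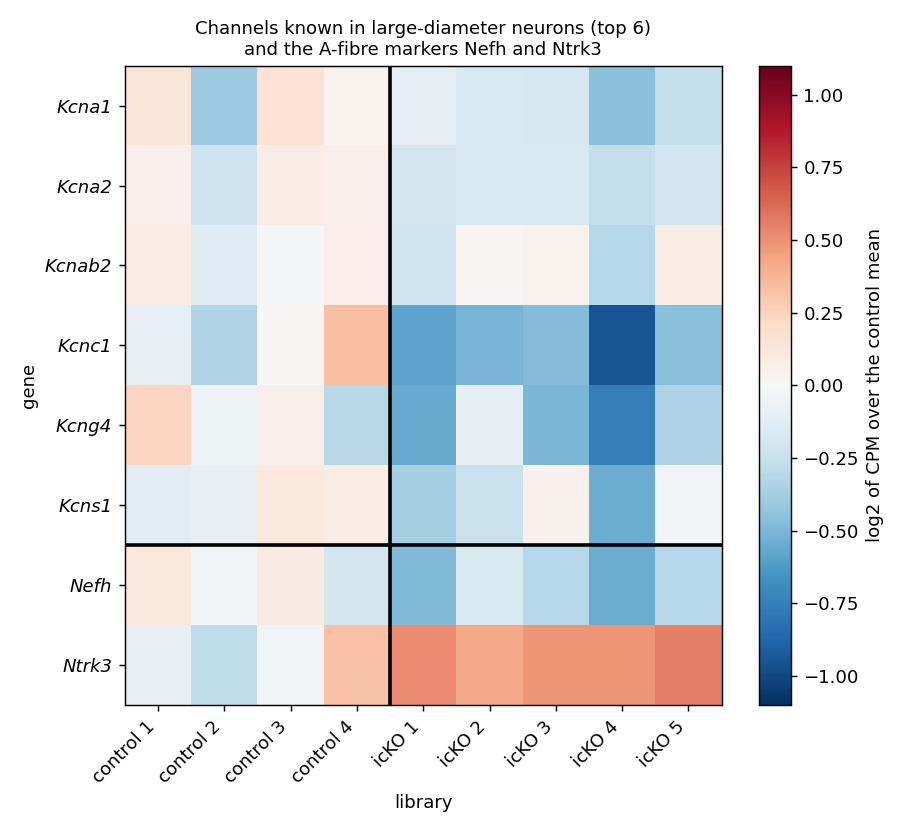
Heat map of log2 of CPM over the control mean in each library (columns), for the 6 channel genes known from large-diameter neurons (top) and the A-fibre markers Nefh and Ntrk3 (bottom); blue is lower and red higher. Most icKO squares are blue, icKO 4 is the deepest among the channels (Kcnc1 at -0.948), control 2 is blue for all 6 channels, and Ntrk3 is red in all 5 icKO libraries.

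A list of 6 channel genes known from small-diameter neurons, which include the nociceptors, had 0 calls and a median of -0.03, with 3 positive and 3 negative values. An unadjusted p under 0.05 was reached by 1 of them with a higher value and by 2 with lower values. These shares were 8.64% and 30.9% over the 81 channel genes. Over all tested genes they were 4.85% and 6.26%, and 0.852% passed the threshold. The 6 genes were Kcna4, Kcnd1, Kcnd3, Kcnk2, Kcnk18 and Kcnt2, and their summed level was 629 to 702 CPM in icKO and 603 to 740 CPM in control. Nociceptor markers summed to 5765 to 6639 CPM in icKO and 5907 to 7631 CPM in control, so these groups overlapped too. Whether the large-diameter and small-diameter lists differ was not tested. For all 81 genes, the effect did not differ between libraries of high and low Y-linked counts at an unadjusted p under 0.05 (smallest adjusted p 0.999933 by edgeR's test of the interaction, 0 of all tested genes called). With 2 to 3 libraries in each such group this test can find only large differences.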

How the data were processed

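Messenger RNA of lumbar dorsal root ganglia was sequenced, and the authors deposited raw read counts per gene, 1 table for each of the 9 libraries. Per the submitters' processing notes they used featureCounts 1.5.0-p1 and STAR 2.5.2a on mm10, and bcl2fastq 2.20.0.422. The annotation release, the strand setting and the treatment of reads with several positions were each not given in the sources used here, so overlapping genes are named as uncertain. Groups and replicate numbers came from the titles.

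Symbols, gene types, exon lengths and coding spans came from GENCODE on the same build, which held all 55536 identifiers. Low genes were removed by edgeR 4.0.16 (filterByExpr by group, minimum count 10, minimum total 15), leaving 17258 genes with at least 99.85% of each library's counts. Groups were compared with edgeR's quasi-likelihood test (TMM factors, trended dispersion, R 4.3.3), and p-values were adjusted by the method of Benjamini and Hochberg over all genes tested. The SE is the absolute log2 fold change divided by the root of F. The code was tested on simulated data.

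The channel genes, gene lists and marker lists were chosen with earlier results of these data known, so their counts and medians are descriptions and no list was tested. Named genes were those past the threshold, the most abundant per kb and the one with the smallest p in each subfamily, and genes of the lists. Further channel genes were named to account for the family, while some channel genes are not reported here and were kept out of the gene lists and figures. Alternatives were RLE and library-size scaling, robust dispersion, other filters, DESeq2 1.42.0, a term for Y-linked counts, fits within high or low Y-linked counts (cut at 10 CPM), a replicate block and leaving out each library. Replicate libraries differed by more than sampling noise (chi-square per degree of freedom 5.534 to 20.99), so each counted once. Floors of 3 counts cover counting error only.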

Additional observations from a re-analysis of the deposited data

Results flagged for a closer look

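In 13 of 220 groups of 4 or 5 libraries checked, 1 library lay far from the others of its group by Dixon's criterion, about as often as the 1 in 20 that chance gives. Control 4 was high for Kcnb2 (260 CPM, others 193 to 205), Kcng3 (6.23 CPM, others 3.14 to 3.57) and Kcnk13 (22.8 CPM, others 15.3 to 16.6), and for the marker Gfap (29.7 CPM, others 0.449 to 1.46). Control 2 was low for Kcna2 (460 CPM, others 557 to 569) and high for Kcnip4 (272 CPM, others 249.7 to 251). Control 1 was high for Kcnk4 (22.4 CPM, others 14.6 to 15.6). Among the icKO libraries, icKO 4 was low for Kcnc1 (45.1 CPM, others 58.4 to 63.3) and high for the pericyte marker Rgs5 (254 CPM, others 189 to 205). Library icKO 5 was high for Kcnf1 (6.23 CPM, others 3.60 to 4.24) and low for Kcnt2 (12.6 CPM, others 17.1 to 18.1). Library icKO 2 was high for Kcnk16 (1.93 CPM, others 0.205 to 0.403) and for Lrrc55, a gene for a BK channel partner (12.3 CPM, others 8.33 to 9.16).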

How the results depend on the processing

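As reported, 2 channel genes were higher and 2 lower, and 82 and 65 of all tested genes. Without the count filter the numbers were 4 and 5 channel genes, and 172 and 221 of all genes. DESeq2 called 5 higher (Kcnab1, Kcnc2, Kcnh6, Kcnip4, Kcnv1) and 8 lower (Kcnc1, Kcne1l, Kcng1, Kcnj11, Kcnk10, Kcnmb1, Kcnn2, Kcnn3), and 196 and 229 of all genes. A filter at a mean of 5 CPM left 1 lower, since Kcng1 is then no longer counted. Within the libraries of high Y-linked counts 0 and 0 channel genes passed, with 0 and 3 of all genes, and within those of low counts 0 and 0, with 11 and 9 of all genes. Leaving out each library gave 1 to 2 channel genes higher and 1 to 4 lower, and 45 to 85 and 33 to 90 of all genes, the lowest numbers of all genes being those without icKO 1. The median of the channel genes was then -0.13 (without control 2) to -0.0625 (without control 1), and the number lower at an unadjusted p under 0.05 was 18 to 28. Replicate numbers are shared by 4 pairs of libraries, whose deviations correlated at 0.103, -0.178, -0.0403 and 0.173, so the numbers were not taken as pairs. A fit with the replicate block (without icKO 5) called 0 and 0 channel genes and 28 and 20 of all genes, with an adjusted p of 0.0742 for Kcnab1. Over 110 genes and 2083 values, 2000 stayed on their side of the threshold, 50 lost a call, 33 gained one and 0 called values reversed. Most of the 110 genes had no call as reported, so most of the 2000 values are genes that remained without one. Only Kcnab1, Kcnv1, Kcnmb1, Kcng1, Cntn2 and Ntrk3 had a call to lose, and the 50 lost calls are theirs. The 2000 are therefore no measure of how stable the calls are. In 134 of the 2000 the sign changed with neither value past the threshold. Under the other scalings the median of all genes was at most 0.0141. Depth limits the genes near 1 CPM, above all Kcng1, whose call rests on 17 to 76 counts a library.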
